A study of Drosophila melanogaster with 18 samples.

Results

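The genes described here encode the proteins of the mitochondrial ribosome and were measured in *Drosophila* S2R+ cells. The set was proposed with earlier results of these data known, and its probes were then taken by name. Every array probe whose locus name maps to 1 gene symbol that starts with *mRpL* (large subunit) or *mRpS* (small subunit) was taken. At least 2 of the 3 arrays of some group had to have it well above background. Of 32162 probes, 82 met this rule, and they stand for 70 genes. The large subunit had 52 probes for 45 genes and the small subunit had 30 probes for 25 genes. No probe was lost to the filter, since all 82 were well above background on all 18 arrays. The names table holds 73 symbols of this form, and the 3 others (*mRpL37*, *mRpS34* and *mRpL53*) had no probe that could be given to them alone. As 10 of the genes had more than 1 probe and *mRpS5* had 4, counts are given in probes. The genes are spread over the genome, with 12 on chromosome arm 2L, 11 on 2R, 16 on 3L, 20 on 3R and 11 on X.

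Mitochondria translate the few proteins encoded by their own genome, all of them subunits of the respiratory chain and ATP synthase, on ribosomes of bacterial descent. The ribosomal RNAs of these particles come from the mitochondrial genome, whereas their proteins are encoded in the nucleus, made in the cytosol and imported. The large subunit forms peptide bonds, the small subunit binds the messenger, and both carry proteins with bacterial counterparts next to proteins that arose in mitochondria.

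S2R+ is an adherent line derived from *Drosophila* embryos. The cells received double-stranded RNA against *His2Av*, the fly gene of the histone variant H2A.Z (H2Av RNAi), or against *lacZ*, a bacterial gene that flies do not have (lacZ RNAi), so that control cells were exposed to dsRNA as well. After RNAi the cells were kept at 14 °C, 25 °C or 30 °C for 24 h, and RNA of each was hybridised to a single-colour Agilent array. This gave 6 groups of 3 arrays: lacZ RNAi at 14 °C, at 25 °C and at 30 °C, and H2Av RNAi at 14 °C, at 25 °C and at 30 °C. The dishes were seeded with different cell numbers for the 3 temperatures. The arrays of a group are biological replicates from replicate experiments, and the labels do not say whether the same number in different groups stands for the same experiment. The 3 arrays of a group shared a slide that held no other group, and effects of slide cannot be told apart from those of group in any comparison.

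Values are quantile-normalized log2 signals, so 1 unit is a 2-fold difference and every value is relative to the whole of its array. Quantile normalization gives all arrays the same distribution, and the number of arrays limits the precision. Tests were made with limma over all 21774 probes that passed the filter, and a probe was called when its Benjamini-Hochberg adjusted p was under 0.05. In RNA from a whole culture, a lower signal in every cell and a smaller share of cells with the transcript cannot be told apart. The *His2Av* transcript was at 11.3%, 11.9% and 6.48% of the lacZ level by its brighter probe at 14 °C, 25 °C and 30 °C, and at 4.64%, 3.45% and 1.56% by its other probe. All 10 blood cell markers examined were well above background on the 18 arrays, and so were *Mef2* of muscle precursors, the neuron markers *elav* and *nSyb* and the germ line marker *vas*. The other muscle precursor marker, *twi*, was above background on 2 arrays and the fat body markers *Lsp1alpha* and *Lsp2* on 1 and 0.

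The 82 probes ranged in signal from 7.69 to 16.16. Between its lowest and highest group mean, a probe moved by 0.29 to 2.6, with a median of 0.84, against a median SD within groups of 0.16. By group this SD was 0.16, 0.27 and 0.17 for lacZ RNAi at 14, 25 and 30 °C. It was 0.24, 0.11 and 0.11 for H2Av RNAi. The group in which a gene was highest was lacZ RNAi at 25 °C for 52 of the 82 probes (35 of the large and 17 of the small subunit) and lacZ RNAi at 30 °C for another 15. The lowest group was H2Av RNAi at 30 °C for 29 probes, at 14 °C for 19 and at 25 °C for 15. The shares of all probes that were highest or lowest in each group are not given. These counts include lacZ RNAi 25 °C replicate 1, which stood apart from its group as described below.

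To follow each subunit as a whole, every probe was set against its own mean over the 18 arrays, and the median of these deviations was taken on each array. For the large subunit, this median was 0.77, 0.27 and 0.24 on the 3 arrays of lacZ RNAi at 25 °C and -0.31, -0.19 and -0.22 on those of H2Av RNAi at 25 °C. At 30 °C the values were 0.11, 0.28 and 0.08 for lacZ RNAi and -0.17, -0.27 and -0.18 for H2Av RNAi. At both temperatures the groups were apart. At 14 °C they overlapped, with 0.10, 0.11 and -0.12 for lacZ RNAi and -0.30, -0.26 and 0.18 for H2Av RNAi.

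For the small subunit the medians were 0.56, 0.25 and 0.26 for lacZ RNAi and -0.28, -0.10 and -0.19 for H2Av RNAi at 25 °C, and again no array of one group reached the range of the other. At 30 °C the lacZ RNAi arrays had 0.09, 0.29 and 0.04 and the H2Av RNAi arrays -0.18, -0.23 and -0.18. At 14 °C, H2Av RNAi replicate 3 (0.16) lay above all lacZ RNAi arrays (0.10, 0.03 and -0.12), while H2Av RNAi replicates 1 and 2 lay below them (-0.28 and -0.21). In both subunits replicate 1 of lacZ RNAi at 25 °C was the highest of all 18 arrays. On the same array, transcripts of the mitochondrial genome had a median deviation of -1.84, against 0.25 and 0.07 on the others of its group. Counts of probes called by adjusted p and medians of the set at 25 °C, and some gene changes, are therefore also given without it. Other counts of the set and values of other genes and lists at 25 °C include this array.

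To determine how depletion of *His2Av* affected these transcripts at the standard temperature, the 3 H2Av RNAi arrays of 25 °C were set against the 3 of lacZ RNAi. The signal was lower in 49 of the 82 probes and higher in 1, *mRpL10*. Of all probes tested, 27.2% were called, with 15.9% lower and 11.2% higher, whereas 59.8% of the mitochondrial ribosomal protein probes were lower. In a fit on the 16047 probes that, like these, were well above background on every array, 34.1% were called and 19.7% were lower. Both subunits had like shares, with 31 of 52 probes lower in the large subunit (median change -0.71) and 18 of 30 in the small subunit (median -0.60), where all probes had a median of 0.02. The change was below 0 in 71 of 82 probes, and in 62 the 3 H2Av RNAi arrays all lay below the 3 lacZ RNAi arrays, which was so for 23.8% of all probes. With at least a 2-fold difference 7 of the 82 probes were called, all lower (8.54%), where 7.72% of all probes were lower and 14.5% called in either direction by this rule. The share of lower probes by this rule was thus close to that of all probes. These 7 stand for *mRpL11*, *mRpL15*, *mRpL20* (both probes), *mRpL34*, *mRpL45* (its dimmer probe) and *mRpS29*. Without lacZ RNAi 25 °C replicate 1, *mRpL11* (-0.92), *mRpL34* (-0.83) and *mRpS29* (-0.70) changed by less than 2-fold. *mRpL15* (-1.05) did not, and values of *mRpL20* and *mRpL45* without that array are not given.

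In the large subunit the lowest value relative to the control belonged to *mRpL15*, whose bacterial counterpart is one of the inner proteins of the large subunit. Its signal was 13.62, 13.29 and 13.05 with lacZ RNAi and 11.93, 12.05 and 12.37 with H2Av RNAi at 25 °C. The groups did not overlap, and the H2Av RNAi level was 43.5% of that with lacZ RNAi (change -1.20 ± 0.22 SE, adjusted p = 0.00164). *mRpL11*, which belongs to the base of the stalk where translation factors bind, had 14.21, 13.45 and 13.56 with lacZ RNAi and 12.49, 12.51 and 12.75 with H2Av RNAi. It was at 44.9% of the control (change -1.16 ± 0.21, adjusted p = 0.00148). *mRpL34* had 14.53, 13.45 and 13.60 with lacZ RNAi against 12.52, 12.82 and 12.73 with H2Av RNAi, again without overlap (change -1.17 ± 0.29, adjusted p = 0.0105). In all 3 genes replicate 1 was the highest lacZ RNAi array. Without it the changes were -1.05 for *mRpL15*, -0.92 for *mRpL11* and -0.83 for *mRpL34*, with adjusted p of 0.00777, 0.00455 and 0.0448.

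The genes of the stalk did not move alike. Next to *mRpL11*, the stalk protein gene *mRpL12*, which flies need for growth driven by cyclin D and its kinase, fell by 0.62 ± 0.18 (adjusted p = 0.0232). It had 15.74, 15.10 and 15.10 with lacZ RNAi and 14.68, 14.66 and 14.73 with H2Av RNAi. *mRpL10*, the protein that anchors the stalk, was the single probe called higher, with 14.67, 14.39 and 14.28 with lacZ RNAi against 14.78, 14.99 and 15.07 with H2Av RNAi. The groups of *mRpL10* lay close without overlap, and its change was 0.50 ± 0.15 (adjusted p = 0.0215). Both calls rested on single arrays. That of *mRpL12* was lost without lacZ RNAi 25 °C replicate 1 (change -0.41, adjusted p = 0.0881) and when any 1 of the 3 H2Av RNAi arrays was left out (adjusted p = 0.0651, 0.0682 and 0.0504), and that of *mRpL10* without replicate 3 of lacZ RNAi (0.42, adjusted p = 0.0712) and replicate 2 or 3 of H2Av RNAi (0.48 and 0.44, adjusted p = 0.0696 and 0.0784).

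Other large subunit genes that fell at 25 °C include *mRpL23* (-0.82), at the exit of the peptide tunnel in bacterial ribosomes, and *mRpL45* (-0.71 and -1.07 by its 2 probes), whose mammalian counterpart lies near the same exit. Among genes without a bacterial counterpart, *mRpL51* changed by -1.0, *mRpL46* by -0.99, *mRpL40* by -0.80 and *mRpL41* by -0.65. Several proteins around the site of peptide bond formation were not called, namely *mRpL2* (0.05), *mRpL3* (0.23) and *mRpL16* (-0.14 and 0.17), although *mRpL27* of the same region fell by 0.83. The changes in this paragraph include lacZ RNAi 25 °C replicate 1.

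In the small subunit *mRpS29*, a GTP-binding protein known in mammals as DAP3, had the lowest value relative to the control. It had 10.48, 9.20 and 9.60 with lacZ RNAi against 8.76, 8.54 and 8.81 with H2Av RNAi (change -1.05 ± 0.26, adjusted p = 0.0102), and -0.70 without lacZ RNAi 25 °C replicate 1 (adjusted p = 0.0317). The lowest adjusted p belonged to *mRpS17*, whose bacterial counterpart binds the ribosomal RNA early in assembly. Its signal was 13.16, 12.90 and 12.99 with lacZ RNAi and 12.06, 12.17 and 12.16 with H2Av RNAi, which is 54.0% of the control (change -0.89 ± 0.12, adjusted p = 0.000225). *mRpS6*, a platform protein, had 13.03, 12.97 and 13.25 against 12.03, 12.42 and 12.23 (change -0.85 ± 0.16, adjusted p = 0.0021). Without lacZ RNAi 25 °C replicate 1 the changes of *mRpS17* and *mRpS6* were -0.82 and -0.88 (adjusted p = 0.000656 and 0.00504).

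The probes of *mRpS5* disagreed by more than 1, which held for no other gene. Of its 4 probes 3 lay above 0 at 25 °C (0.61, 0.57 and 0.45) and 1 lay below (-0.69), and none was called (adjusted p = 0.0924 for the brightest), so no direction can be given for this gene. Probes were also split by descent. Among large subunit probes, 20 of 35 with a bacterial counterpart and 11 of 17 without one were lower at 25 °C, with medians of -0.72 and -0.68. In the small subunit these were 12 of 21 and 6 of 9, with medians of -0.57 and -0.61.

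The counts at 25 °C depended in part on 2 arrays. Without lacZ RNAi 25 °C replicate 1, 36 probes were lower and 2 higher, the medians were -0.53 and -0.48, and 17.9% of all probes were called. Without H2Av RNAi 25 °C replicate 1, 30 probes were lower and 1 higher, the medians were -0.67 and -0.53, and 16.5% of all probes were called. A fit on the 6 arrays of these groups alone called 12 probes instead of 50, and *mRpL34* (adjusted p = 0.0629), *mRpS29* (0.0917), *mRpL12* (0.122) and *mRpL10* (0.134) were then not among them. The share of all probes called in that fit is not given, so this lower count cannot be read as particular to these genes. Scaling to the 75th percentile gave 48 lower and 1 higher, while the median over all probes itself moved to 0.43 and 11.3% of all probes were lower.

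At 30 °C the same comparison called 19 probes lower and 1 higher, where 12.2% of all probes were called, 7.3% lower and 4.87% higher. In the fit on the 16047 probes well above background on every array, 15.4% were called and 9.24% were lower. The large subunit had 14 lower probes of 52 (median change -0.38) and the small subunit 5 of 30 (median -0.30). The change was below 0 in 70 of 82 probes, and in 45 the H2Av RNAi arrays lay below all lacZ RNAi arrays, against 16.8% of all probes. All 19 probes that were lower at 30 °C were also among the 49 that were lower at 25 °C, which is 100% of the one list and 38.8% of the other. The comparisons at the 3 temperatures use different arrays but share the estimate of each probe's spread. The overlap of calls over all probes is not given. The count of 20 called probes was 13 with replicate 1 of lacZ RNAi at 30 °C left out. It was 13 and 11 with H2Av RNAi replicates 1 and 2 of that temperature left out. A fit on the 6 arrays alone gave 4, and scaling to the 75th percentile gave 8 lower and 1 higher. The share of all probes called is not given beside these counts.

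*mRpL15* was again among the genes with the lowest value relative to the control, with 13.23, 13.40 and 13.10 with lacZ RNAi against 11.86, 12.28 and 12.40 in H2Av RNAi (change -1.06 ± 0.22, adjusted p = 0.00543). *mRpS18B* gave the smallest p-value of the set at this temperature. It had 12.63, 12.76 and 12.64 with lacZ RNAi and 11.71, 11.76 and 11.74 with H2Av RNAi, so that H2Av RNAi was at 52.1% (change -0.94 ± 0.13, adjusted p = 0.00036). *mRpS6* (-0.96 ± 0.16, adjusted p = 0.00132) and *mRpS10* (-1.0 ± 0.21, adjusted p = 0.00594) fell to a like extent. *mRpL23* and *mRpL41* changed by -0.86 and -0.79 (adjusted p = 0.00757 and 0.00377). In the fit on the 6 arrays alone *mRpS10* and *mRpL41* were not called (adjusted p = 0.0688 and 0.0605). *mRpL11*, one of the most reduced genes at 25 °C, was at -0.36 at 30 °C and was not called, nor was *mRpL12* (-0.45, adjusted p = 0.137), which passed the threshold without lacZ RNAi 25 °C replicate 1 (adjusted p = 0.0428).

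The exception at 30 °C was *mRpS30*, which is PDCD9 in mammals, where the protein sits in the large subunit despite its name. It had 13.48, 13.59 and 13.20 with lacZ RNAi against 14.19, 14.25 and 14.45 with H2Av RNAi. The groups were well apart and the level with H2Av RNAi was 1.83-fold higher (change 0.87 ± 0.15, adjusted p = 0.00164, or 0.0532 in the fit on these 6 arrays alone). At 25 °C and 14 °C *mRpS30* was at 0.42 and 0.31 without a call. In addition to *mRpS30*, probes of *mRpL3*, *mRpL10*, *mRpL22*, *mRpL30* and 3 of those of *mRpS5* were above 0 at all 3 temperatures, 8 in all. Another 54 were below 0 at all 3 temperatures and 20 were of mixed sign.

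At 14 °C few probes passed the threshold. *mRpL9*, whose counterpart in bacteria reaches out from the large subunit, and the dimmer probe of *mRpL45* were lower, 2 of 82 probes, where 7.22% of all probes were called, 4.35% lower and 2.86% higher. In the fit on the 16047 probes well above background on every array, 10.3% were called and 6.25% were lower. *mRpL9* had 14.11, 14.17 and 13.90 with lacZ RNAi against 13.31, 13.44 and 13.46 with H2Av RNAi (change -0.66 ± 0.17, adjusted p = 0.0326), and it lost its call without any 1 of these 6 arrays (adjusted p from 0.0535 to 0.12). The dimmer *mRpL45* probe had 8.93, 9.69 and 9.19 against 8.35, 7.69 and 7.93 (change -1.28 ± 0.28, adjusted p = 0.0149), while the brighter one was at -0.56 and was not called. No small subunit probe was called, and 4 of 30 had an unadjusted p under 0.05. This was so for 3926 of the 16047 probes well above background on every array. The medians were -0.24 for the large and -0.15 for the small subunit, with 57 of 82 probes below 0 and 14 without overlap on the lower side, against 18.2% of all probes. H2Av RNAi replicate 3, which had the highest subunit medians in its group, lay above the others of its group for genes such as *mRpL15* (12.71, 12.37 and 13.15) and *mRpL34* (12.49, 12.75 and 13.41). The count was 1 without this array, 0 when replicate 2 of either 14 °C group was left out, 1 without replicate 1 or 3 of lacZ RNAi, and 8 without lacZ RNAi 25 °C replicate 1, which enters through the shared spread. With scaling to the 75th percentile no probe was lower and 1 was higher. For these alternative fits at 14 °C the share of all probes called is not given.

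**Figure D1:**
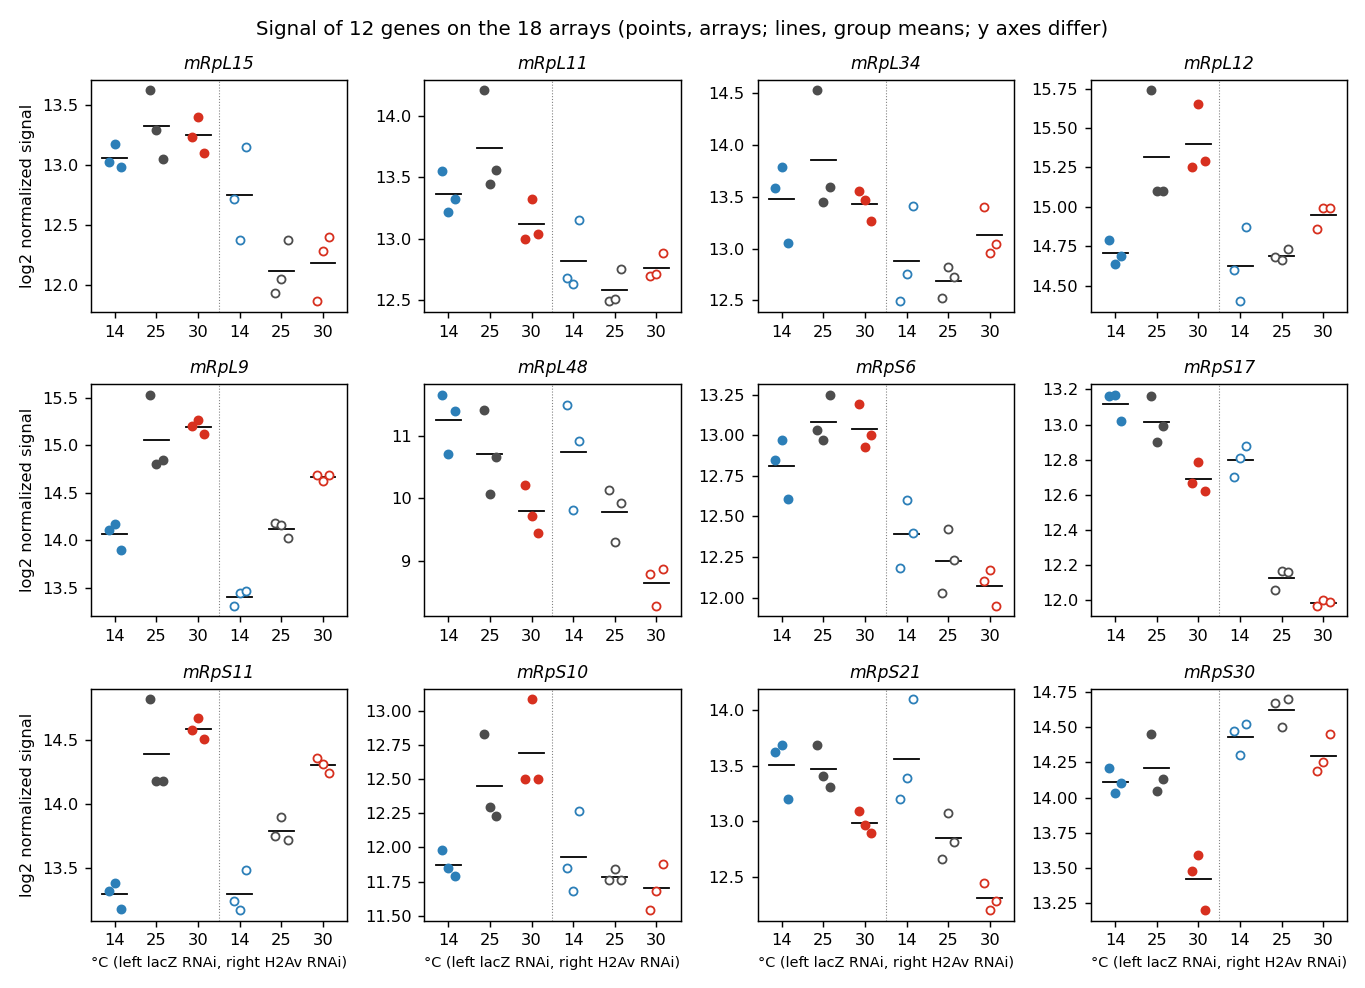
Log2 normalized signal of 12 genes on each of the 18 arrays (points) with group means (lines), lacZ RNAi filled and H2Av RNAi open; the y axes differ between genes and do not start at 0. The RNAi groups of *mRpL15*, *mRpS6* and *mRpS17* do not overlap at 25 and 30 °C, *mRpL9* and *mRpS11* are lower at 14 °C than at 30 °C, *mRpL48* is higher, and *mRpS30* is lowest with lacZ RNAi at 30 °C.

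To assess temperature dependence, 14 °C was compared with 30 °C in each RNAi group. With lacZ RNAi, 16 mitochondrial ribosomal protein probes were lower and 6 higher at 14 °C. This share (26.8%) was close to that of all probes (31.9%, with 16.6% lower and 15.3% higher), so that these genes as a set were not more often called than others. The medians were -0.16 for the large and -0.15 for the small subunit. With H2Av RNAi 12 were lower and 11 higher, where 38.4% of all probes were called (20.2% lower and 18.2% higher), and the medians were 0.10 and 0.01. Scaling to the 75th percentile gave 7 lower and 5 higher with lacZ RNAi and 8 lower and 13 higher with H2Av RNAi. With lacZ RNAi, 14 probes were called without its 14 °C replicate 3. These counts too are given without the share of all probes called.

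*mRpS11*, of the platform of the small subunit, had 13.32, 13.38 and 13.18 at 14 °C and 14.58, 14.67 and 14.51 at 30 °C with lacZ RNAi. The level at 14 °C was 40.8% of that at 30 °C (change -1.29 ± 0.17, adjusted p = 5.48e-05), and a second probe gave -1.24 (adjusted p = 2.76e-05). With H2Av RNAi the change of *mRpS11* was -1.01 (adjusted p = 0.00034).

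*mRpL9* had 14.11, 14.17 and 13.90 at 14 °C and 15.20, 15.26 and 15.12 at 30 °C with lacZ RNAi (change -1.13 ± 0.17, adjusted p = 0.000198), and it had 13.31, 13.44 and 13.46 against 14.69, 14.62 and 14.69 with H2Av RNAi (change -1.26, adjusted p = 6.51e-05). *mRpL32* fell by 1.06 with lacZ RNAi and by 1.25 with H2Av RNAi by its brighter probe. *mRpL28*, *mRpL35*, *mRpL45* (by its brighter probe), *mRpS7* and *mRpS9* were lower at 14 °C in both as well. The dimmer *mRpL45* probe was at -0.19 with lacZ RNAi (adjusted p = 0.657) and at -0.93 with H2Av RNAi (adjusted p = 0.0186). The call of *mRpS9* with H2Av RNAi was lost without any 1 of 4 arrays (replicates 1 and 2 of 14 °C and 2 and 3 of 30 °C, adjusted p from 0.0809 to 0.0989). *mRpL12* was lower with lacZ RNAi (-0.69, adjusted p = 0.0102, or 0.165 after scaling to the 75th percentile) and was at -0.33 with H2Av RNAi (adjusted p = 0.178).

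The opposite course was most marked for *mRpL48*, a large subunit protein without a bacterial counterpart. It had 11.65, 10.70 and 11.39 at 14 °C and 10.22, 9.72 and 9.45 at 30 °C with lacZ RNAi, which is 2.73-fold higher in the cold (change 1.45 ± 0.42, adjusted p = 0.0175). With H2Av RNAi it had 11.48, 9.81 and 10.91 against 8.79, 8.29 and 8.87 (change 2.09 ± 0.42, adjusted p = 0.00153). The arrays of *mRpL48* scattered widely within each group, but the groups did not overlap. With lacZ RNAi the call was lost without 14 °C replicate 1 or 3 (1.25 and 1.38, adjusted p = 0.0715 and 0.0551) or 30 °C replicate 3 (1.28, adjusted p = 0.0658). *mRpL55* (0.55 in both) and *mRpS17* (0.43 and 0.81) were also higher at 14 °C in both RNAi groups, although *mRpS17* with lacZ RNAi was not called without 14 °C replicate 2 or 30 °C replicate 3 (adjusted p = 0.0521 and 0.0529). *mRpS21*, a small RNA-binding protein of bacterial descent, was called with H2Av RNAi, with 13.20, 13.39 and 14.10 at 14 °C and 12.44, 12.20 and 12.28 at 30 °C (change 1.25 ± 0.22, adjusted p = 0.000479), and its change with lacZ RNAi was 0.52 without a call.

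**Figure D2:**
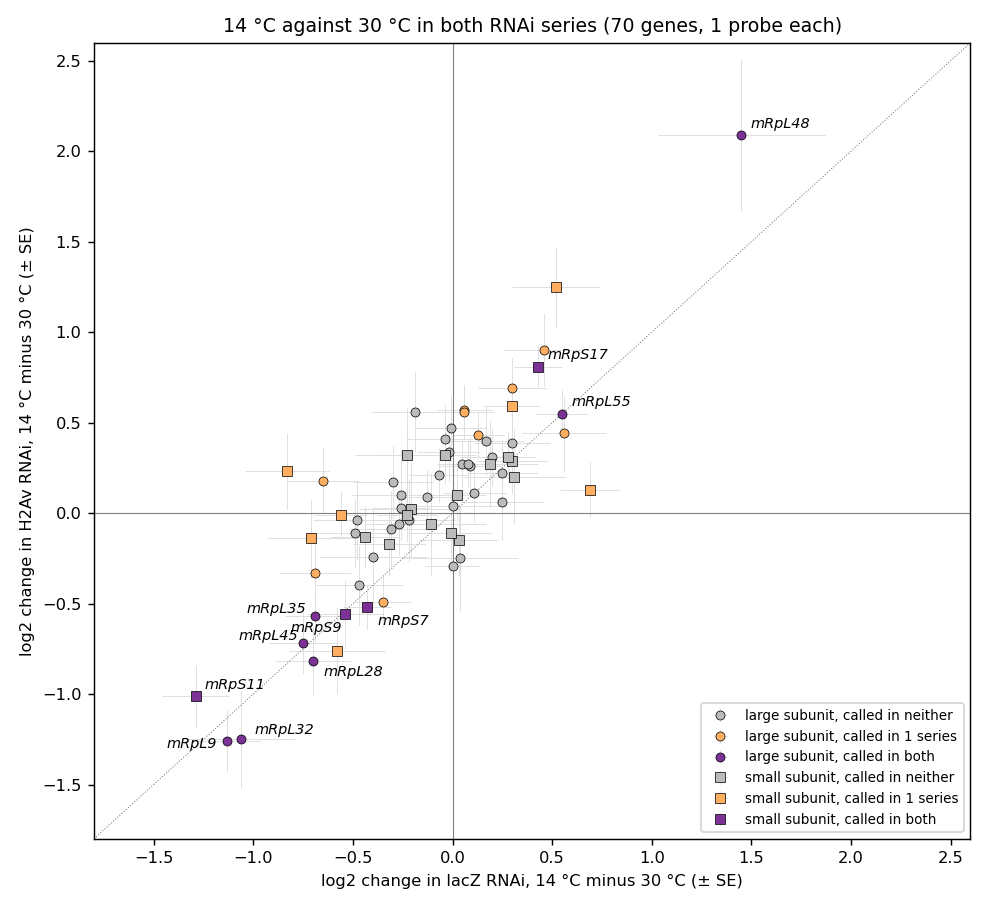
Change between 14 and 30 °C on the log2 scale of each mitochondrial ribosomal protein probe, with lacZ RNAi on the x axis and H2Av RNAi on the y axis, which come from different arrays. *mRpS11*, *mRpL9* and *mRpL32* are lower at 14 °C in both and *mRpL48* is higher in both.

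The 14 °C to 30 °C comparisons with lacZ and H2Av RNAi share no array, but they share the estimate of each probe's spread. Of the probes lower at 14 °C, 9 were called in both, which is 56.2% of the 16 with lacZ RNAi and 75% of the 12 with H2Av RNAi. Of those higher at 14 °C, 4 were called in both, 66.7% of 6 and 36.4% of 11. The overlap over all probes is not given here either. Whether the temperature effect differed between lacZ and H2Av RNAi was tested as an interaction. For 14 against 30 °C none of the 82 probes was called, at a background of 0.409%, and 11 had an unadjusted p under 0.05. Of the 16047 probes well above background on every array, 1518 had an unadjusted p under 0.05. *mRpS10* came closest, with a difference of 1.06 between the effects (adjusted p = 0.185). It was 11.98, 11.85 and 11.79 at 14 °C and 12.50, 13.09 and 12.50 at 30 °C with lacZ RNAi (change -0.83, adjusted p = 0.00739), and 11.85, 11.68 and 12.27 against 11.54, 11.68 and 11.88 with H2Av RNAi, where the groups overlapped (change 0.23).

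In the comparisons with 25 °C within lacZ RNAi, replicate 1 of 25 °C was the highest array in both subunits. With lacZ RNAi, 19 probes were lower at 14 °C than at 25 °C and none was higher, at a background of 21.7% (12.6% lower and 9.03% higher), with 72 of 82 below 0 and medians of -0.36 and -0.27. *mRpS11* (-1.10, adjusted p = 0.000547), *mRpL9* (-1.0, adjusted p = 0.00121), *mRpL28* (-0.95, adjusted p = 0.003) and *mRpL35* (-0.93, adjusted p = 0.000824) had the lowest values. *mRpS9* (-0.67), *mRpS28* (-0.70) and *mRpL12* (-0.61) were lower too, but each lost its call without any 1 of 4 arrays. Without lacZ RNAi 25 °C replicate 1, 9 probes were called, all of them lower, and the medians were -0.19 and -0.24. Without lacZ RNAi 14 °C replicate 1, 2 or 3 the counts were 10, 9 and 9. At 30 °C compared with 25 °C, 9 probes were lower and 1 was higher (15.2% of all probes were called, 8.58% lower and 6.64% higher), with medians of -0.23 and -0.19. *mRpS30* (-0.78, adjusted p = 0.00455) and *mRpL55* (-0.77, adjusted p = 0.00278) were among the lower ones, and neither was called in a fit on these 6 arrays (adjusted p = 0.213 and 0.198). Without lacZ RNAi 25 °C replicate 1 the medians were -0.08 and -0.05, with 6 lower and 3 higher probes. Leaving out replicates 2 and 3 of that group gave 16 and 6 called probes, and leaving out the 30 °C replicates 1, 2 and 3 gave 4, 17 and 3. The shares of all probes called are not given for the fits in this paragraph that leave out an array.

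The same comparisons were made with H2Av RNAi. At 14 °C, 4 probes were lower and 2 higher (13.3% of all probes were called, 7.07% lower and 6.24% higher), and *mRpL9* (-0.72), *mRpL28* (-0.73), *mRpL35* (-0.60) and the second probe of *mRpS11* (-0.58) were the lower ones. *mRpS21* (0.71) and *mRpS17* (0.67) were higher. The call of *mRpL9* was lost without H2Av RNAi 25 °C replicate 1, those of *mRpL28* and *mRpL35* without 3 and 4 single arrays, and that of *mRpS21* without 12. At 30 °C, *mRpL32* was higher (0.93) and *mRpS2* was lower (-0.44), where 12.0% of all probes were called (6.26% lower and 5.75% higher). The calls of *mRpL32* and *mRpS2* were lost without any 1 of 6 and of 14 arrays, respectively. Interactions called none of the probes for 14 against 25 °C (background 0.00459%) or 30 against 25 °C (background 0.795%). An unadjusted p under 0.05 was found for 21 and 4 of the probes. It was found for 2127 and 1931 of the 16047 probes well above background on every array. *mRpL36* (0.90, adjusted p = 0.328) and *mRpL11* (0.80, adjusted p = 0.335) came closest.

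Other gene lists were described in the same way, with no test between lists. With H2Av RNAi at 25 °C, 33 of 113 probes of nuclear genes of oxidative phosphorylation were lower and 1 was higher (median -0.26), against 15.9% lower and 11.2% higher among all probes. Of 170 probes of cytoplasmic ribosomal proteins 3 were lower and 17 higher (median 0.05). Transcripts of the mitochondrial genome had a median of 0.76 over 22 probes at 25 °C, of which 2 were called, both higher, and the low array of lacZ RNAi at 25 °C described above enters this value. At 30 °C, 9 of the oxidative phosphorylation probes (7.96%) and 2 of the cytoplasmic ribosomal protein probes (1.18%) were lower, where 7.3% of all probes were, so the former share was close to that of all probes.

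The other nuclear genes of mitochondrial translation were taken from a list of 43 genes with 56 probes, and each gene is given by its brightest probe on average over the arrays. With H2Av RNAi at 25 °C, 24 were lower and none higher (median -0.63), among them 11 of 16 aminoacyl-tRNA synthetases, 6 of 10 translation factors and 5 of 9 genes for transcription and maintenance of mitochondrial DNA. These counts include lacZ RNAi 25 °C replicate 1. On this list that array had a median deviation of 0.75, against 0.23 and 0.29 on the others of its group. At 14 °C 8 were lower and 1 higher, and at 30 °C 10 and 1, where 4.35% and 7.3% of all probes were lower. *mEFTu2*, an elongation factor that brings charged tRNA to the ribosome, changed by -1.36, -1.58 and -1.73 at 14, 25 and 30 °C (adjusted p = 0.000248, 2.8e-05 and 1.01e-05). The glutamyl-tRNA synthetase *GluRS-m* (-1.54, -1.86 and -1.67) and the transcription termination family gene *mTerf3* (-0.69, -0.86 and -0.74) were lower at all 3 temperatures as well. *mEFG1*, the factor that moves the ribosome along the messenger, was higher at 14 °C (0.50) and at 30 °C (0.59). Of the small subunit genes that bear other names, *bonsai* (mRpS15) fell at 25 °C (-0.97, adjusted p = 0.00206), and *tko* (mRpS12) was at -0.50 without a call (adjusted p = 0.136).

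On this list 14 °C against 30 °C gave 12 lower and 3 higher genes with lacZ RNAi and 13 and 3 with H2Av RNAi, where all probes had 16.6% lower and 15.3% higher with lacZ RNAi and 20.2% and 18.2% with H2Av RNAi. *PolG1*, the catalytic subunit of the mitochondrial DNA polymerase, changed by -1.76 and -2.18, and the arginyl-tRNA synthetase *ArgRS-m* was higher by 1.42 and 1.11.

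**Figure D3:**
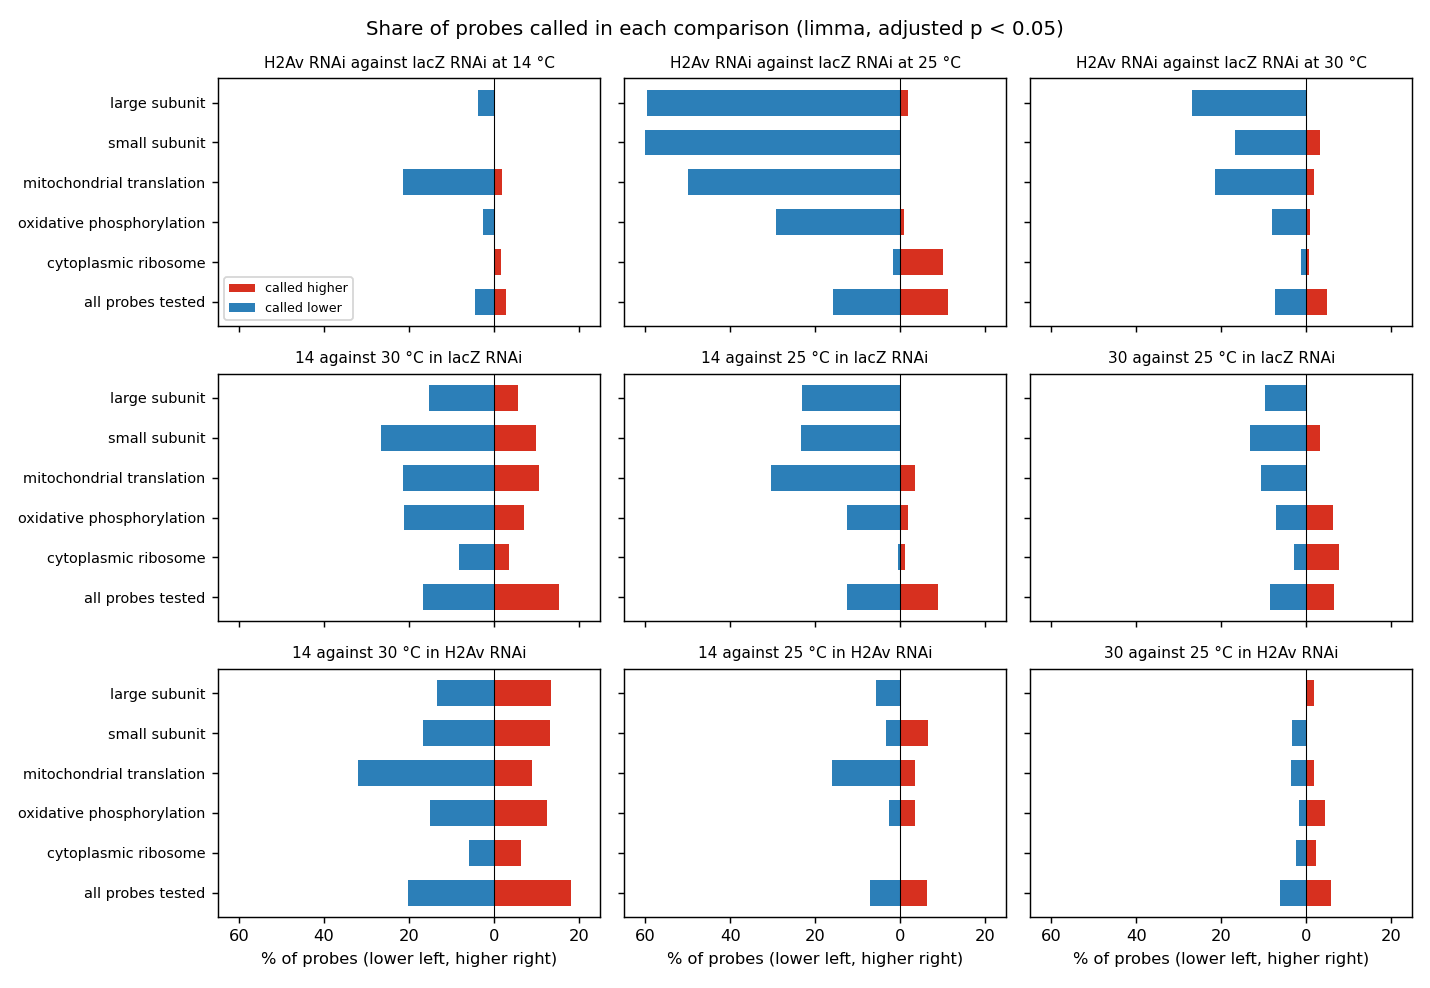
Share of probes called lower (left of 0) and higher (right of 0) in each of 9 comparisons, in % of the probes of each list (limma, adjusted p under 0.05). At 25 °C, 59.6% of large and 60.0% of small subunit probes are lower with H2Av RNAi, against 15.9% of all probes.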

How the data were processed

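Total RNA of 18 samples in 6 groups was labelled with Cy3 by the authors and hybridised to Agilent 4x44K *Drosophila* arrays, which were read with Feature Extraction (version 10.7.3.1 per the file headers). The deposited scanner files give a processed intensity per spot on a linear scale, after background subtraction, with flags for signals well above background. The series matrix deposited by the authors holds log2 values, quantile-normalized per the study's methods (preprocessCore, with the median over repeated probes), and was used as an alternative. No column was left unused for want of a sample (0).

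Of 45020 spots, 1417 controls and 42 to 78 outlier spots per array were left out (0 saturated). The intensities were quantile-normalized, turned into log2 and averaged over the spots of a probe, which gave 32162 probes. A probe was tested if well above background on at least 2 of 3 arrays of a group. One limma fit (limma 3.58.1, R 4.3.3) over all 6 groups gave the changes, their standard errors and adjusted p-values, and was tested on simulated data. Locus names were matched to RefSeq symbols: 19482 probes had 1 symbol (13059 symbols), and 193 probes whose locus name several genes share were not named. The array design and the names table use different releases of the fly genome, so no coordinates are given. Promoter motifs were not searched and sequences were not used here.

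Alternatives were 75th percentile scaling, normexp background correction (on the median signal, as the mean signal was not used here), the authors' matrix, other filters, a 2-fold rule, array weights, the replicate number as a block, fits on the compared groups alone, and leaving out each array. The matrix rows were matched to probes in sorted order, which moved 2673 rows and was checked by rank correlation. Named genes are, per comparison and subunit, up to 3 genes that rose most and up to 3 that fell most among called probes whose groups did not overlap (1 probe a gene, that of highest mean signal), with *mRpL12* and *mRpS5*. Other genes were named for their role or as exceptions after their values were seen. The genes and lists were chosen with earlier results of these data known.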

Additional observations from a re-analysis of the deposited data

Results flagged for a closer look

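For *mRpL24* the 3 lacZ RNAi arrays of 14 °C all lay below those of 25 °C (change -0.33), whereas the 3 H2Av RNAi arrays of 14 °C all lay above those of 25 °C (0.29). The difference between these effects was 0.62 and did not pass the interaction test in limma (adjusted p = 0.341). For *mRpS7* the arrays of 30 °C all lay below those of 25 °C with lacZ RNAi (change -0.07) and all above them with H2Av RNAi (0.24), and its interaction of 0.31 was not called either (adjusted p = 0.516).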

How the results depend on the processing

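No called change of a named gene reversed under the alternatives run, and of 75 pairs of a named gene and a comparison 39 kept direction and side of the threshold in every alternative; the 75th percentile ended 14 calls, the fits on the compared groups alone 23, and normexp correction and the authors' matrix 0. Counts of called probes moved more. Most counts under an alternative come without the share of all probes called under it. Such counts do not show whether a shift was particular to these genes. H2Av against lacZ RNAi is given for 14, 25 and 30 °C, and temperature comparisons are 14 against 30, 14 against 25 and 30 against 25 °C. Under the 2-fold rule the counts were 1, 7 and 1, then 5, 2 and 0 with lacZ RNAi and 5, 0 and 0 with H2Av RNAi. The 75th percentile setting (all-probe medians up to 0.43) gave 1 at 14 °C and 9 at 30 °C, then 12 (first) and 16 (last of the 3 temperature comparisons) with lacZ RNAi, and 2 (middle) and 0 (last) with H2Av RNAi, with lacZ medians of 0.0 (small subunit, 14 against 30 °C), -0.42 and -0.38 (large and small, 30 against 25 °C). Normexp correction gave 7 at 14 °C, and 17 and 6 for 30 against 25 °C with lacZ and H2Av RNAi. A filter on all arrays gave 5, 16 and 5 there, where 10.3%, 20.2% and 14.7% of its 16047 probes were called. The matrix gave 6 at 14 °C and 5 for 30 against 25 °C with H2Av RNAi. Array weights (0.116 to 13.3) gave 11 at 14 °C and 38 at 30 °C, 30 and 25 for 14 and 30 against 25 °C with lacZ RNAi, 39, 11 and 32 with H2Av RNAi, and 3, 4 and 3 for the interactions. Fits on the compared groups alone gave 0, 12 and 4, then 14, 4 and 0 with lacZ RNAi and 8 for 30 against 25 °C with H2Av RNAi; the cause of these shifts was not tested.

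Same-numbered arrays were not paired by the labels. Their deviations correlated with r from -0.47 to 0.61 (median 0.18, 26 of 45 pairs over 0.1), against a median of -0.08 with 22 of 90 over 0.1 for arrays of different number, and 10 of 18 arrays had their best partner in their own number. With the replicate number as a block, 30 against 25 °C with H2Av RNAi had 4 called probes instead of 2, and the other counts stayed within 1.5 times. Among named genes the block ended the call of *mRpS21* for 14 against 25 °C with H2Av RNAi and no other.

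Without single arrays, the counts ranged from 0 to 8 at 14 °C, 31 (without H2Av RNAi 25 °C replicate 1) to 55 at 25 °C and 11 to 28 at 30 °C. With lacZ RNAi they ranged from 14 to 28, 9 to 20 and 3 to 17, and with H2Av RNAi from 18 to 27, 2 to 10 and 0 to 7, and the interactions stayed at 0. The small subunit median of 14 against 30 °C with lacZ RNAi ranged from -0.22 to 0.02, the latter without lacZ RNAi 30 °C replicate 2.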
